A study of Arabidopsis thaliana with 12 samples.

Results

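The genome of the plastid, the organelle that becomes the chloroplast in green tissue, encodes parts of the machinery that expresses it. The 39 genes described here are the plastid genes listed for 4 subunits of the plastid RNA polymerase, 15 rows for proteins of the small ribosomal subunit, 11 rows for proteins of the large subunit, and 9 rows for other functions (matK, accD, clpP1, ycf1, ycf2, cemA and ccsA). They were chosen by name and locus code, without use of their measured values, from 88 plastid genes among 27655 listed genes. Genes of the inverted repeat, a stretch present as a pair of copies in the plastid genome, are listed once per copy.

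The libraries were made from polyA RNA of whole Arabidopsis thaliana seedlings of wild type and of geralt, the line SALK_116579, which the sample titles call phr2. SALK lines carry a T-DNA insertion, and the labels name 1 such line and no complemented one. Seedlings grew on agar-solidified B5 medium that held 1% sucrose, in days of 10 h light and 14 h dark, and were harvested at 5 or 12 days of age about 4 h after the light came on. Each of the 4 combinations of genotype and age has 3 libraries. They are named by their label numbers and always given in the same order: wild type 2, 4 and 8 and geralt 1, 3 and 7 at 5 days, wild type 6, 10 and 12 and geralt 5, 9 and 11 at 12 days.

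Plastid genes are read by different RNA polymerases. A bacterial-type enzyme has a core encoded in the plastid by rpoA, rpoB, rpoC1 and rpoC2, takes its promoter specificity from nuclear-encoded sigma factors, and is known as the main polymerase of photosynthesis genes in leaves. Nuclear-encoded polymerases of the phage type read other genes, among them the rpoB operon. Ribosomal proteins, the protease subunit clpP1 and the remaining genes support gene expression and the basic metabolism of the plastid. Plastid transcripts carry A-rich tails only in part, mostly as intermediates of decay, so these libraries hold a selected share of them: a difference in transcript level and one in tailing cannot be told apart here. Nor can fewer cells with plastids of a given kind and less RNA per cell.

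Total gene reads ran from 41.6 to 115.03 M (1 M is 1000000 reads) per library, and the plastid genes took 0.133% to 0.837% of them. The transcript of PHR2, the gene for which the line is titled, ran from 20.6 to 39.7 CPM (counts per 1000000 gene reads, scaled as described below) in the 6 geralt libraries and from 89.2 to 271 CPM in the 6 wild-type libraries. Its log2 fold change was -2.74 over both ages (SE 0.26, adjusted p = 0.000641, edgeR). Shoot markers, such as LHCB1.1 of the light-harvesting antenna, summed to 16768 to 45810 in the wild type and 4815 to 20432 CPM in geralt. Root markers ran from 144 to 964 CPM and from 151 to 326 CPM, so RNA of both organs was present in each library, and seed markers stayed at or under 10.9 CPM. Plastid genes took 0.156% of gene reads in wild-type library 12 (0.755% and 0.712% in its group) and 0.297% in geralt library 5 (0.720% and 0.574%). Geralt library 1 had 0.133% (0.296% and 0.379% in its group), and wild-type library 4 stood apart in the share shown next. The main counts are also given without libraries 4, 12 and 5 together and without library 1. The labels do not say which libraries shared a sequencing lane, so lane was not tested. No strand setting is given, so reads of antisense RNA may be among the gene reads.

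The share of plastid gene reads that fell in these genes separated the genotypes. It was 4.69%, 12.9% and 4.79% in wild type and 35.1%, 35.4% and 36.4% in geralt at 5 days. At 12 days it was 4.27%, 3.09% and 7.56% in wild type and 38.2%, 18.9% and 17.7% in geralt. All 6 geralt libraries lay above all 6 wild-type libraries, with group means of 7.47% and 35.6% at 5 days and of 4.97% and 24.9% at 12 days.

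Each functional group took part in this. The 4 polymerase subunits held 0.912% to 5.35% of plastid gene reads in wild type and 6.74% to 15.6% in geralt. Small-subunit genes held 0.600% to 1.70% and 3.50% to 6.40%, large-subunit genes 0.654% to 1.99% and 2.19% to 6.02%, and the other genes 0.927% to 3.90% and 5.25% to 11.7%. In none of the 4 groups did the genotypes overlap. A share of plastid reads also moves with the photosynthesis genes, which held 87.0% to 96.9% of them in wild type and 61.7% to 82.3% in geralt.

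**Figure D1:**
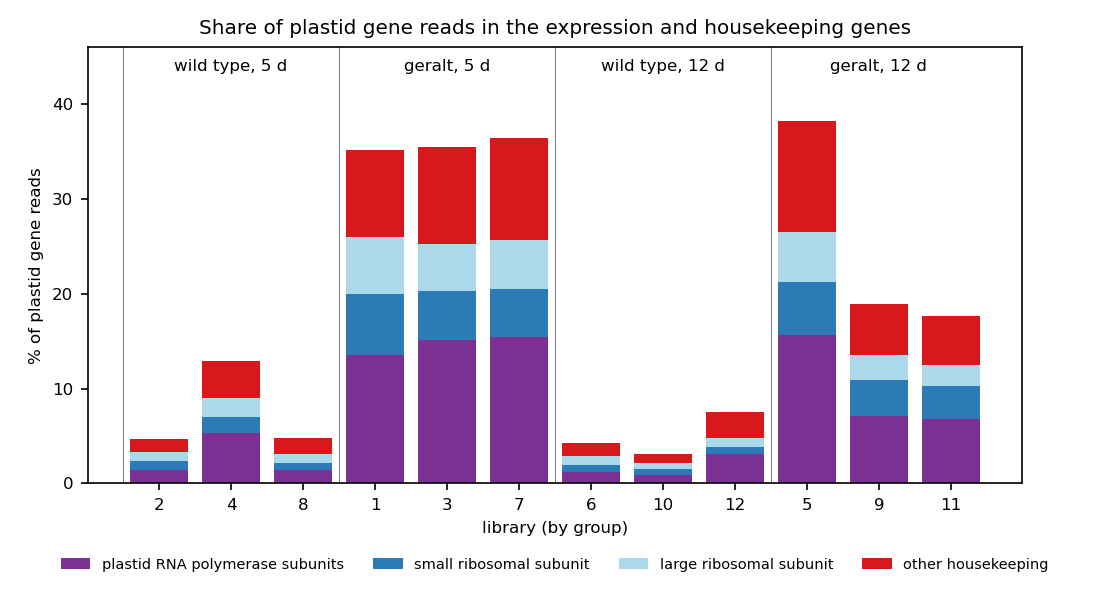
Percentage of plastid gene reads (vertical axis) in the polymerase, small-subunit, large-subunit and other genes, stacked, in each of 12 libraries (horizontal axis, by group). Wild-type bars reach 3.09% to 12.9%, and geralt bars reach 17.7% to 38.2%.

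As a share of all gene reads the picture was less clear-cut at 5 days. The genes took 0.0118% to 0.0799% of all gene reads in wild type and 0.0465% to 0.138% in geralt, and wild-type library 4 lay inside the geralt range. Mitochondrial genes took 0.0822%, 0.118% and 0.0868% in wild type and 0.0649%, 0.148% and 0.200% in geralt at 5 days. At 12 days they took 0.0754%, 0.0697% and 0.0140% in wild type and 0.193%, 0.220% and 0.108% in geralt. A higher share of all gene reads in geralt at 12 days was thus not particular to the plastid genes described here. The comparisons that follow use CPM of all gene reads after scaling by edgeR's TMM factors, and fold changes come from edgeR's quasi-likelihood test over 21122 genes in all 12 libraries. A gene passed when its Benjamini-Hochberg adjusted p was under 0.05. Of the 39 genes, 35 had enough reads to be tested. Both copies of a gene of the inverted repeat count among the 35, although their reads cannot be told apart.

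At 12 days 8 of the 35 genes were higher in geralt and 0 were lower, where 0.436% of all tested genes were called higher and 0.365% lower. The median log2 fold change of the 35 genes was 2.16, against -0.02 for all tested genes. In 26 of the 35 all 3 geralt libraries lay above all 3 wild-type libraries and in 0 below, against 10.2% and 8.91% of all tested genes. Averaged over both ages 16 were higher and 0 lower, with 2.21% of all tested genes called higher and 3.32% lower, and the median was 1.33. At 5 days none of the 35 passed by edgeR, where 0.0331% of all tested genes were called higher and 0.227% lower. Unadjusted, 7 of them had p under 0.05 at 5 days (14.1% of all tested genes), DESeq2 called 3 higher (1.47%), and limma on log2(TPM + 0.5) called 0 (0.00473% higher and 0.0758% lower). In the fit of the 6 libraries of that age alone 1 was higher (1.59%). Without libraries 4, 12 and 5 together 6 were higher and 1 lower (1.73% and 3.11%), and without geralt library 1 none passed. The median was 0.53 (0.87 without geralt library 1), with 3 genes apart above wild type and 2 below, against 12.9% and 14.3% of all tested genes.

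The call at 12 days rested on single libraries and on the spread shared by all groups. Leaving out geralt library 9 left 0 genes. Leaving out any one of geralt libraries 1, 3, 5 and 7 and wild-type libraries 10 and 12 left 1, either of wild-type libraries 2 and 8 left 2, and geralt library 11 left 5. Over the fits that left out 1 library, 0.00935% to 1.26% of all tested genes were called higher. The count was also 0 in a fit of the 6 libraries of that age alone (0.0245% of all tested genes), 20 by DESeq2 (3.14%), and 22 by limma on log2(TPM + 0.5) (6.31%). It was 5 of 24 tested genes in unique reads (0.414%). rps7 and both copies of rps12 have 0.0% unique reads, so they could not be called there. In exon reads it was 3 of 33 (0.411%), namely rpoB, rpoC1 and clpP1. Without libraries 4, 12 and 5 together it was 8 (0.193%), 6 of them the same genes. Over both ages 7 genes were left without wild-type library 2 and 7 without wild-type library 8, 8 without each of geralt libraries 3, 7 and 9, and 15 without geralt library 1, where fits without 1 library called 0.572% to 2.69% of all tested genes higher. Without libraries 4, 12 and 5 together 16 were higher and 1 lower (2.16% and 3.31%). The genes rpoB, rpoC1, rps7, rps12, rpl16, clpP1 and ycf1 passed over both ages whichever single library was left out. For rps7 and rps12 this held for 1 copy only. The second copy of rps7 passed in 7 of 12 such fits (adjusted p up to 0.0812, edgeR). That of rps12 passed in 10 of 12 (up to 0.0540).

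**Figure D2:**
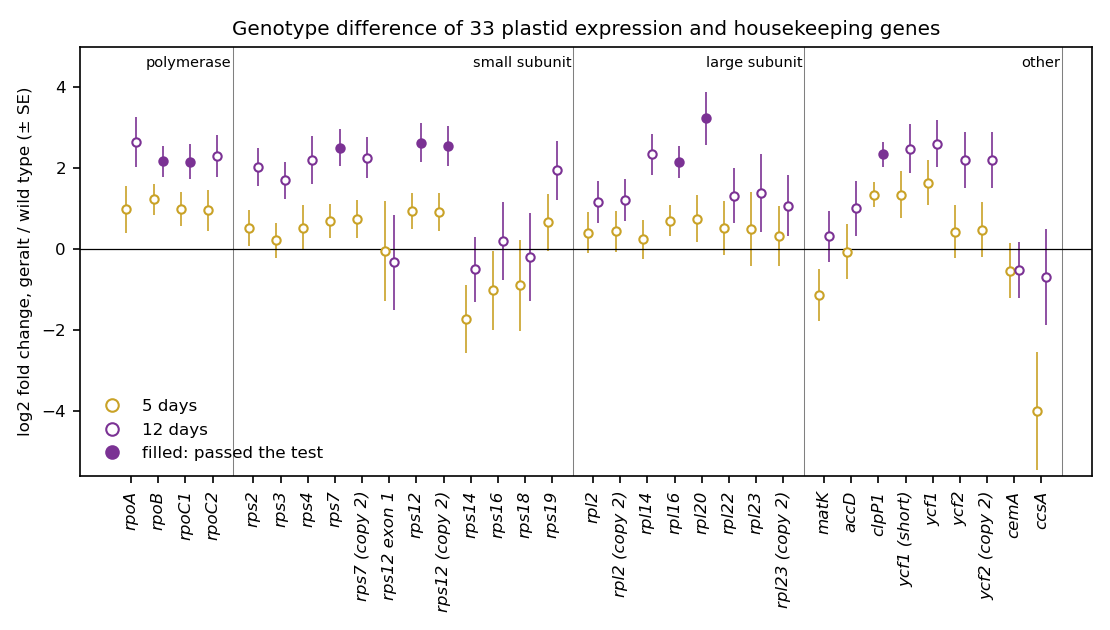
Log2 fold change of geralt over wild type with its standard error (vertical axis) for 33 of the 35 tested genes by role (horizontal axis), at 5 days and at 12 days. Filled symbols mark the 8 genes that passed the test at 12 days, and the medians of all 35 are 0.53 at 5 days and 2.16 at 12 days.

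The polymerase subunits were higher in geralt as a complete set when both ages were averaged. The genes rpoB, rpoC1 and rpoC2 lie next to each other on the minus strand of the plastid chromosome at positions 23111 to 26329, 20251 to 23084 and 15938 to 20068, and rpoA lies apart at 77901 to 78890 (TAIR10 coordinates of the deposited tables). rpoB encodes the β subunit, rpoC1 and rpoC2 the β′ and β″ subunits, and rpoA the α subunit.

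rpoB (ATCG00190) stood at 25.8, 64.7 and 28.4 CPM in the wild type and at 54.5, 116 and 110.3 CPM in geralt at 5 days. At 12 days it stood at 24.5, 26.6 and 18.9 CPM in the wild type and at 81.8, 134 and 101 CPM in geralt. The older groups were thus well apart, while wild-type library 4 lay above geralt library 1 at 5 days. The log2 fold change was 2.18 at 12 days (SE 0.39, adjusted p = 0.0352, edgeR) and 1.24 at 5 days (SE 0.38, adjusted p = 0.169), and 1.71 over both ages (SE 0.27, adjusted p = 0.00704).

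rpoC1 (ATCG00180) had 20.9, 54.5 and 25.5 in the wild type and 29.2, 82.5 and 89.4 CPM in geralt at 5 days, and 20.6, 19.8 and 15.1 CPM against 69.4, 99.2 and 80.9 CPM at 12 days. Again the genotypes overlapped only in the younger seedlings, through wild-type library 4 and geralt library 1. Its log2 fold change was 2.17 at 12 days (SE 0.43, adjusted p = 0.0449, edgeR) and 0.99 at 5 days (SE 0.41, adjusted p = 0.301).

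For rpoC2 (ATCG00170) the levels were 39.5, 115 and 42.1 in the wild type and 52.3, 139 and 194 CPM in geralt at 5 days, then 36.1, 30.8 and 15.5 CPM and 127, 170.0 and 111 CPM at 12 days. rpoA (ATCG00740) had 18.5, 55.4 and 31.6 in the wild type and 30.5, 74.5 and 105 CPM in geralt at 5 days, then 23.1, 14.6 and 3.71 CPM and 89.6, 86.3 and 84.1 CPM at 12 days. Both genes were apart between genotypes at 12 days, and the 3 geralt values of rpoA at that age differed little from each other. Neither passed at 12 days, at log2 fold changes of 2.31 (SE 0.53, adjusted p = 0.0635, edgeR) for rpoC2 and 2.65 (SE 0.61, adjusted p = 0.0656) for rpoA. Over both ages they passed, at 1.64 (adjusted p = 0.0248) and 1.82 (adjusted p = 0.0282), and each lost its call when any one of wild-type libraries 2 and 8 and geralt libraries 3, 7 and 9 was left out.

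**Figure D3:**
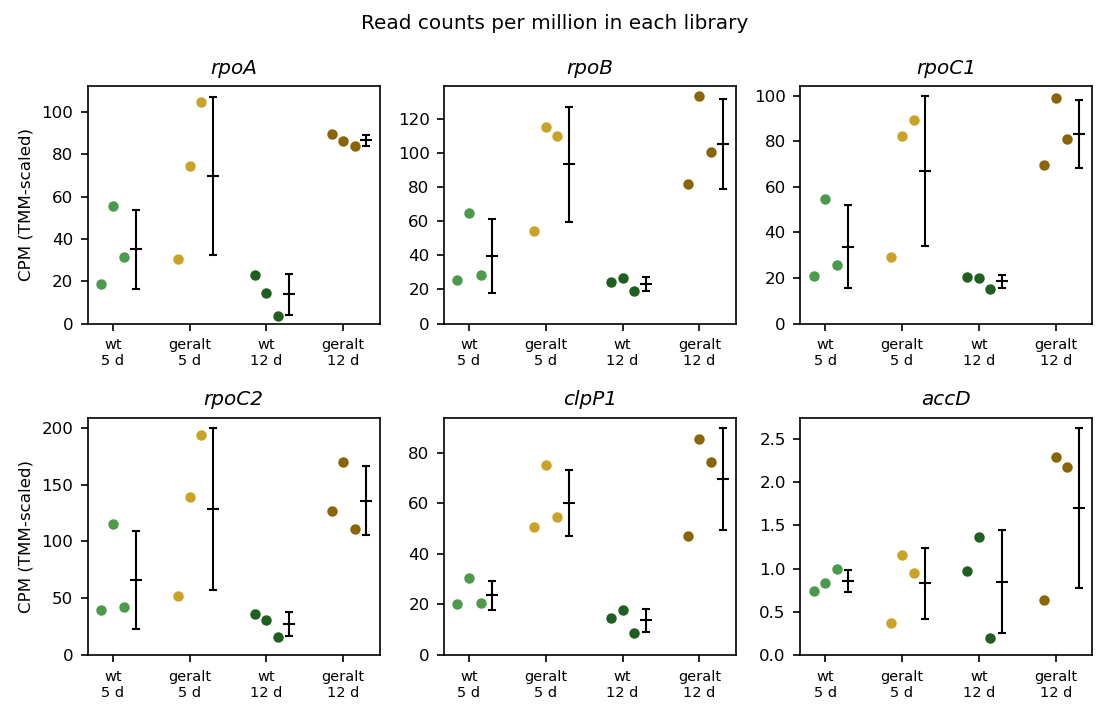
TMM-scaled CPM (vertical axes) of the 4 polymerase subunits, clpP1 and accD in each library by group, with the mean and SD of 3 libraries beside the points. At 12 days the geralt points of the 4 polymerase genes and clpP1 lie above the wild-type points, and those of accD overlap them.

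The weight of the polymerase genes within the whole set was also compared. In TPM, which divide reads by exon length before scaling, they made up 19.6% ± 7.07 of the summed level of the 39 genes in wild type and 21.9% ± 5.72 in geralt at 5 days (SD, n = 3). At 12 days the shares were 16.9% ± 4.79 and 22.0% ± 5.95. The intervals of mean ± SD overlapped at both ages, and the difference was not tested.

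Of the small ribosomal subunit 14 of 15 rows were tested, and 3 were higher in geralt at 12 days, 6 over both ages and none lower. The passing rows at 12 days were rps7 and both copies of the 3′ part of rps12. rps12, a protein of the decoding site, is assembled by trans-splicing from a separately transcribed first exon, and rps7 lies next to its 3′ part in the inverted repeat. Reads of identical copies (795 bases for rps12, 468 bases for rps7) cannot be assigned to one of them, so each pair is 1 observation.

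rps12 (copy ATCG00905) had 15.5, 27.1 and 17.7 in the wild type and 24.8, 40.9 and 51.1 CPM in geralt at 5 days, and 14.9, 11.1 and 3.57 CPM against 41.1, 81.0 and 61.3 CPM at 12 days. Its other copy ran alongside at 15.4, 27.6 and 19.2 CPM and 24.9, 40.1 and 53.5 CPM, then 15.9, 11.6 and 3.30 CPM and 40.5, 80.4 and 59.4 CPM. The lowest value of each copy was in wild-type library 12 and the highest in geralt library 9. Log2 fold changes at 12 days were 2.64 (SE 0.48, adjusted p = 0.0352, edgeR) and 2.55 (SE 0.50, adjusted p = 0.0449), with 0.95 and 0.93 at 5 days.

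rps7 (copy ATCG00900) had 4.95, 7.55 and 6.22 in the wild type and 5.81, 11.2 and 13.5 CPM in geralt at 5 days, and 3.64, 4.27 and 1.15 CPM against 12.6, 20.6 and 18 CPM at 12 days. The second copy had 5.23, 7.92 and 5.24 CPM and 6.20, 10.7 and 14.2 CPM, then 4.23, 5.49 and 1.07 CPM and 12.4, 20.8 and 18.3 CPM. Both were apart at 12 days, but the copies fell on different sides of the threshold, at 2.51 (SE 0.45, adjusted p = 0.0352, edgeR) and 2.27 (SE 0.50, adjusted p = 0.0574). Over both ages both passed, at 1.60 and 1.51.

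rps2, the last of the genes that follow rpoB before the ATP synthase genes, had 1.77, 3.80 and 2.54 in the wild type and 1.87, 4.31 and 5.62 CPM in geralt at 5 days, and 1.5, 1.09 and 0.547 CPM against 4.49, 4.60 and 3.71 CPM at 12 days. It passed over both ages at 1.28 (SE 0.33, adjusted p = 0.0399, edgeR). Overlap was again confined to the younger seedlings.

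Among single-copy small-subunit genes rps19 and rps4 had the highest mean level per length. rps19 had 2.82, 2.33 and 2.91 in the wild type and 2.77, 6.67 and 3.40 CPM in geralt at 5 days, and 2.51, 1.35 and 0.167 CPM against 2.69, 9.22 and 3.57 CPM at 12 days. rps4 had 3.18, 4.06 and 4.51 CPM and 3.90, 7.20 and 5.97 CPM, then 2.94, 3.62 and 0.416 CPM and 6.33, 13.8 and 11.9 CPM. Both were apart at 12 days and neither passed, at log2 fold changes over both ages of 1.31 (adjusted p = 0.160, edgeR) and 1.37 (adjusted p = 0.0714).

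Other tested small-subunit genes split. rps3 had a log2 fold change over both ages of 0.96 without passing, and was apart between genotypes at 12 days. Against this, rps14 stood at -1.11, rps16 at -0.41, rps18 at -0.54 and the row for the first exon of rps12 at -0.18, none past the threshold. rps14 had 11.9, 4.38 and 9.38 in the wild type and 1.47, 3.27 and 3.03 CPM in geralt at 5 days, so that at that age every geralt library was the lower. Of the rps14 reads 75.9% reached past the annotated exon or lay outside it, and it adjoins psaB, a photosystem I gene. Such reads also made up 52.4% of those of rps7 (53.6% for its second copy). They were 52.1% of those of rpl14, a large-subunit gene that, like rps7, was higher in geralt over both ages. The first exon of rps12, rps16 and rps18 had at most 0.539 CPM in any library, and rps15 was not tested, with 9 reads in all libraries together.

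Of the large ribosomal subunit 8 of 11 rows were tested, and all 8 had positive log2 fold changes at both ages. rpl16 and rpl20 passed at 12 days, and rpl14 joined them over both ages. rpl16 and clpP1 were among the 3 genes of the set in which all 6 geralt libraries lay above all 6 wild-type libraries, a pattern 1.07% of all tested genes showed, and none of the set showed the reverse (1.43%). rpl16 (ATCG00790) had 13.6, 16.8 and 13.0 in the wild type and 17.7, 25.7 and 27.6 CPM in geralt at 5 days, and 9.88, 6.01 and 2.58 CPM against 21.5, 33.5 and 27.6 CPM at 12 days. Its log2 fold change was 2.16 at 12 days (SE 0.39, adjusted p = 0.0352, edgeR) and 0.71 at 5 days (SE 0.38, adjusted p = 0.421).

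rpl20 (ATCG00660) had the largest log2 fold change of the 35 genes at 12 days, 3.24 (SE 0.65, adjusted p = 0.0450, edgeR), from low counts. It had 0.180, 0.703 and 0.443 in the wild type and 0.467, 0.869 and 0.973 CPM in geralt at 5 days, and 0.283, 0.155 and 0.0833 CPM against 1.06, 1.76 and 2.08 CPM at 12 days. rpl14 had 2.38, 4.94 and 3.25 CPM and 1.54, 4.44 and 6.68 CPM at 5 days, then 1.75, 0.803 and 0.928 CPM and 7.27, 4.96 and 5.59 CPM at 12 days. The geralt libraries of both genes lay clear of wild type only in the older seedlings. For rpl14 the log2 fold change was 1.30 over both ages (SE 0.35, adjusted p = 0.0479) and 2.35 at 12 days (adjusted p = 0.0530). In exon reads rpl14 did not pass over both ages.

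rpl2, rpl22 and rpl23 had log2 fold changes over both ages of 0.79 (0.83 for the second copy), 0.93, and 0.95 (0.70 for the second copy), and none passed. rpl2 was the most abundant of them, at 34.8 ± 7.68 in the wild type and 46.4 ± 19.4 CPM in geralt at 5 days and at 23.4 ± 15.7 and 52.8 ± 16.0 CPM at 12 days (SD, n = 3). rpl32, rpl33 and rpl36 were not tested, with 30, 26 and 15 reads in all 12 libraries. All 26 reads of rpl33 were from wild type and 0 from geralt, and rpl33 follows psaJ, a photosystem I gene.

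Among the other genes clpP1 differed most firmly between genotypes. clpP1 (ATCG00670) encodes a proteolytic subunit of the plastid Clp protease, whose remaining subunits come from the nucleus, and lies on the minus strand at 69910 to 71882 with 3 exons. It had 20.0, 30.3 and 20.7 in the wild type and 50.8, 75.2 and 54.5 CPM in geralt at 5 days, and 14.7, 17.6 and 8.83 CPM against 46.9, 85.6 and 76.5 CPM at 12 days. The lowest geralt library exceeded the highest wild-type library. The log2 fold change was 1.35 at 5 days (SE 0.31, adjusted p = 0.0814, edgeR), 2.35 at 12 days (SE 0.32, adjusted p = 0.0198) and 1.85 over both ages (SE 0.22, adjusted p = 0.00183). The call at 12 days was lost without geralt library 9 (adjusted p = 0.0601).

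ycf1 encodes a large protein assigned to import across the inner envelope, and a truncated copy of its start lies at the other end of the inverted repeat. The truncated gene shares its first 1030 of 1032 bases with the full gene, so the division of reads between the 2 rows is uncertain. The full gene (ATCG01130) had 1.95, 4.64 and 2.27 in the wild type and 3.98, 14.5 and 9.55 CPM in geralt at 5 days, and 1.66, 1.76 and 0.595 CPM against 4.35, 9.76 and 10.3 CPM at 12 days. The truncated copy had 5.15, 22.8 and 8.93 CPM and 16.1, 31.5 and 46.9 CPM, then 6.01, 8.39 and 1.84 CPM and 24.3, 35.3 and 31.2 CPM. Only wild-type library 4 reached into the geralt range of its age in either row. Over both ages the log2 fold changes were 2.13 (SE 0.40, adjusted p = 0.0129, edgeR) and 1.92 (SE 0.42, adjusted p = 0.0238).

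accD (ATCG00500), the plastid-encoded subunit of acetyl-CoA carboxylase in fatty acid synthesis, did not pass in any comparison scaled to all gene reads, and passed as higher only against plastid reads alone. It had 0.744, 0.833 and 1.00 in the wild type and 0.371, 1.16 and 0.955 CPM in geralt at 5 days, and 0.973, 1.37 and 0.202 CPM against 0.631, 2.29 and 2.18 CPM at 12 days. The genotypes overlapped at both ages. Its log2 fold change was -0.05 at 5 days (SE 0.68, adjusted p = 0.981, edgeR) and 1.02 at 12 days (SE 0.68, adjusted p = 0.437). The sign at 5 days turned without wild-type library 8 (0.07) or geralt library 1 (0.30).

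ycf2, a very large protein of a motor complex for protein import, stood at 47.5 ± 16.9 in the wild type and 64.3 ± 43.4 CPM in geralt at 5 days, and at 19.6 ± 14.9 and 91.2 ± 18.6 CPM at 12 days (SD, n = 3). It was apart between genotypes at 12 days without passing, since the test gave 2.22 on the log2 scale (SE 0.69, adjusted p = 0.130, edgeR), and its second copy was at 2.21. matK, the maturase of several plastid introns, cemA, an envelope protein, and ccsA, a cytochrome assembly factor, stood at -0.41, -0.52 and -2.34 over both ages without passing. ccsA had 0.231, 0.115 and 0.270 in the wild type and 0, 0.0155 and 0.0184 CPM in geralt at 5 days. It and rps14 were the 2 genes of the set whose geralt libraries all lay below wild type at 5 days, where 14.3% of all tested genes did so.

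Neighbouring genes often share transcripts in plastids, so the values are also given in gene order. In the row that starts with rpoB, the log2 fold changes at 12 days were 2.18 for rpoB, 2.17 for rpoC1, 2.31 for rpoC2 and 2.03 for rps2. The ATP synthase genes that come next on the same strand, atpI, atpH, atpF and atpA, stood at 0.09, 0.37, 0.42 and 0.17, none past the threshold. At 5 days the values of rpoB, rpoC1, rpoC2 and rps2 were 1.24, 0.99, 0.97 and 0.53. Those of atpI, atpH, atpF and atpA were -0.08, -0.80, -1.39 and -0.48, and none of these genes passed at that age. In the row of ribosomal genes from rpl23 to rpoA every tested gene had a positive value at both ages, from 1.17 for rpl2 to 2.65 for rpoA at 12 days. A difference between the members of a row was not tested.

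Some of the genes lie among photosynthesis genes. rps14 stood at -1.72 at 5 days, behind psaA at -1.80 and psaB at -1.67. At 12 days rps14, psaA and psaB stood at -0.50, -0.70 and -0.58. accD and cemA, at -0.05 and -0.53 at 5 days, lie in the row that begins with rbcL, the large subunit of Rubisco. At 12 days accD and cemA stood at 1.02 and -0.51. rbcL stood at -6.43 at 5 days (adjusted p = 0.0504, edgeR) and -1.53 at 12 days (adjusted p = 0.411), past the threshold at neither age. rbcL passed over both ages at -3.98 (SE 0.76, adjusted p = 0.0136, edgeR).

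**Figure D4:**
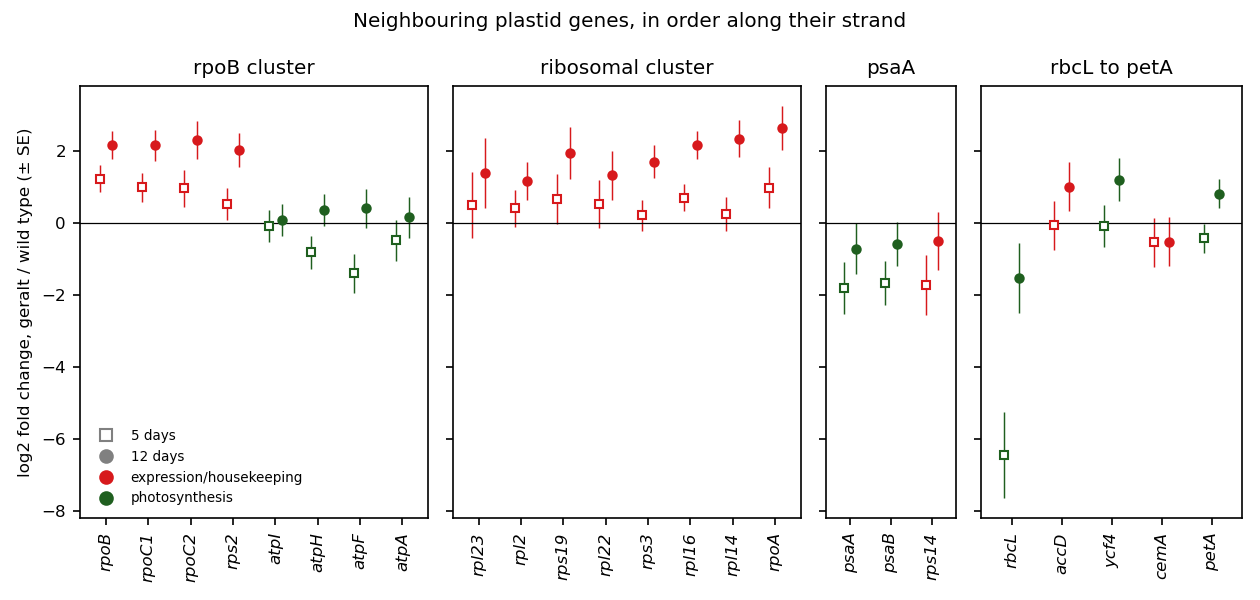
Log2 fold change of geralt over wild type with its standard error (vertical axis) for neighbouring plastid genes, less those not reported here, in their order along the strand (horizontal axis), in 4 rows of genes, at 5 days (open squares) and 12 days (filled circles). From rps2 to atpI the values go from 2.03 to 0.09 at 12 days and from 0.53 to -0.08 at 5 days.

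Of the 38 tested plastid genes for photosynthesis and the NDH complex 0 were higher and 9 lower in geralt over both ages, and their median log2 fold change was -0.91. The 9 were psbA, psbD, psbZ, psbB and psbH of photosystem II, petB and petD of the cytochrome complex, atpB of ATP synthase, and rbcL. At 5 days 6 of the 38 had positive values and the median was -1.47. At 12 days 17 of the 38 had positive values, up to 2.25, and the median was -0.35. Set against plastid gene reads alone, 28 of the 35 expression and housekeeping genes passed as higher at 5 days, at 12 days and over both ages, and 0 as lower. The background was high in these fits, with 53.3%, 56.0% and 61.3% of 75 plastid genes called higher and 10.7%, 6.67% and 12.0% lower. These 75 include the 35 genes themselves. Of the 38 photosynthesis and NDH genes 11, 12 and 16 also passed as higher, and 8, 5 and 9 as lower. The medians of the 35 genes were 2.18, 2.46 and 2.42. matK, rps16, rps14, cemA, rps18, the first exon of rps12 and ccsA passed in none of the 3 fits.

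Change with age was not called for any of the 35 genes by edgeR. From 5 to 12 days the median log2 fold change was -0.78 in wild type and 0.50 in geralt, with 6 and 32 of 35 genes above 0, and 0 passed in either genotype (0.0% of all tested genes). These medians rest on single libraries. In geralt the median was 0.07 without library 1, with 23 of 35 genes above 0, and 0.89 without library 7. In wild type it was -0.47 without library 12, -1.22 without library 10, and -0.20 without libraries 4, 12 and 5 together, with 12 of 35 genes above 0. Unadjusted, 10 genes in wild type and 0 in geralt had p under 0.05, against 19.8% and 4.61% of all tested genes. DESeq2 called 3 lower in wild type (2.19% of all tested genes) and 0 in geralt (0.185% higher and 0.109% lower). The polymerase genes ran from -1.35 to -0.77 in wild type and from 0.08 to 0.31 in geralt. The genotype difference was larger at 12 than at 5 days in 34 of 35 genes, by a median of 1.22 on the log2 scale (0.81 without wild-type library 12), but 0 passed the test of that difference, 10 had an unadjusted p under 0.05 (10.3% of all tested genes), and DESeq2 called 0 (0.123% higher and 0.246% lower). Set against plastid reads the median of that difference was 0.20.

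Spliced and intron reads were compared in the genes with at least 20 such reads, both kinds together, in every library, clpP1, rpoC1, rpl2, rpl16 and rps12. The deposited intron count is not confined to introns. In genes with 1 exon it also held reads, such as 75.9% of those of rps14 and 1.52% of those of ycf2. The ratios may therefore include reads that reach past the annotated exons, and do not measure splicing alone. clpP1 has introns of 867 and 515 bases and rpoC1 has 1 intron of 791 bases. Their borders are shown because an exon-exon read must join the capitals across the lower-case stretch: 12 exon bases are in capitals and 18 intron bases in lower case, 5′ to 3′ on the minus strand, from the RefSeq plastid sequence of TAIR10.1, whose start and end for both genes are those of the deposited tables.
clpP1 intron 1, start, Pt:70945-71811: GGTTGACATATAgtgcgacttgtcagatat
clpP1 intron 1, end: ataaaaaattatcctaatCAACCGACTTTA
clpP1 intron 2, start, Pt:70138-70652: TTCCCTCACGCTtggcgccaatgagttttt
clpP1 intron 2, end: cttttctattatatcatcAGGGTAATGATC
rpoC1 intron, start, Pt:21862-22652: GTATACTGCGATgtgtgatttgatcgaaat
rpoC1 intron, end: agtggaccctatcccaatTTTTCTTTTGCT

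For each intron read of clpP1 there were 3.82, 2.28 and 1.78 exon-exon reads in wild type and 5.21, 4.32 and 3.09 in geralt at 5 days, and 2.59, 4.41 and 1.08 against 2.69, 2.50 and 2.23 at 12 days. The genotypes overlapped at both ages. The log2 difference, geralt minus wild type, was 0.41 and ran from 0.13 without wild-type library 12 to 0.64 without wild-type library 10 (p = 0.290, adjusted p = 0.677, two-sided exact permutation test within ages, 400 permutations).

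rpoC1 had 0.413, 0.404 and 0.322 exon-exon reads for each intron read in wild type and 0.455, 0.340 and 0.501 in geralt at 5 days, and 0.276, 0.289 and 0.255 against 0.464, 0.313 and 0.451 at 12 days. At 12 days all 3 geralt libraries were above wild type. The log2 difference was 0.37 (exact permutation p = 0.040, adjusted p = 0.280 over 7 rows). These rows hold both copies of rpl2 and of rps12. Of the remaining introns rpl2 stood at -0.28 (-0.17 for the second copy) and rps12 at 0.12 (0.07 for the second copy). rpl16 stood at 0.81, from 0 to 26 exon-exon reads per library, and at 0.01 without wild-type library 12. No gene passed the adjustment. Over the permutation tests that left out 1 library, the adjusted p of rpoC1 ran from 0.035, without geralt library 3, to 0.56.

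**Figure D5:**
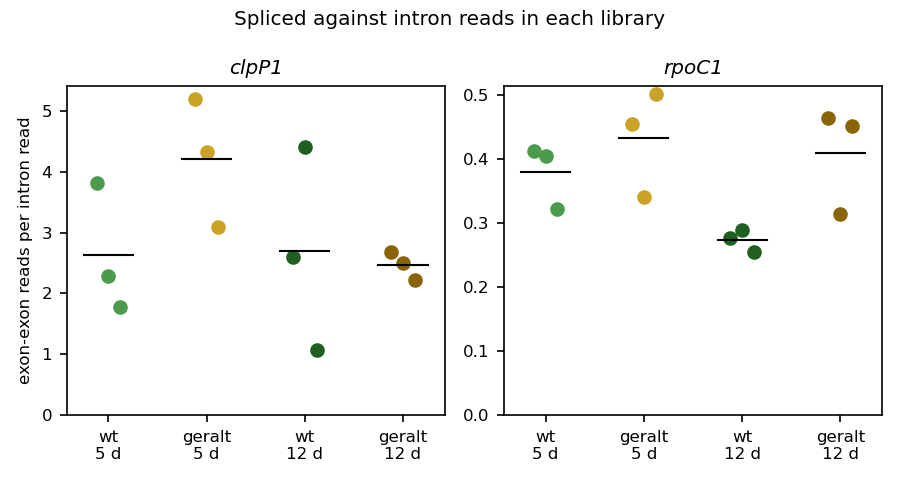
Exon-exon reads for each intron read (vertical axes) of clpP1 and rpoC1 in each library by group, with a line at the mean of 3 libraries. clpP1 groups overlap at both ages, and the geralt points of rpoC1 lie above wild type at 12 days.

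Nuclear genes that act with these plastid genes were compared by list, and none was called higher over both ages. Unadjusted, 20.8% of all tested genes had p under 0.05 over both ages. Of 9 sigma factors and phage-type polymerases 7 did so, with log2 fold changes of the 9 from -1.17 to 0.58 and 4 of them positive. By adjusted p none was higher, and SIG1, a sigma factor, was lower over both ages at -1.17 (SE 0.25, adjusted p = 0.0231, edgeR). SIG1 stood at 29.3 and 11.1 in the wild type and geralt at 5 days and at 34.0 and 17.8 CPM at 12 days. Of the 12 proteins associated with the plastid polymerase 0 passed in either direction over both ages, with a median of 0.14 and 2 at an unadjusted p under 0.05.

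Nuclear genes for plastid ribosomal proteins had log2 fold changes over both ages from -1.07 to -0.04 in 32 genes, with RPL27 (-1.07, adjusted p = 0.0235, edgeR) and RPL31 (-0.72, adjusted p = 0.0479) lower and none higher, and 12 at an unadjusted p under 0.05. Of 13 nuclear genes of the Clp protease, CLPP3 at -0.64 and the chaperone CLPD at -0.87 were lower over both ages and none was higher, with 6 at an unadjusted p under 0.05, while clpP1 stood at 1.85. None of 13 nuclear partners of accD, ycf1, ycf2 and ccsA and none of 12 splicing and editing factors passed over both ages by edgeR, with 3 and 3 at an unadjusted p under 0.05. At 5 and at 12 days none of these nuclear lists had a gene past the threshold. Shoot markers moved with genotype as well, with LHCB1.1, RBCS1A and KAT1 lower and the meristem regulator STM higher over both ages. STM also passed at 5 and at 12 days. Of 9 root markers IRT1 at -6.15 (adjusted p = 0.0082, edgeR) and NRT2.1 at -4.40 (adjusted p = 0.0205) were lower over both ages and 0 higher. The part of these markers in the results on plastid genes was not tested.

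The authors' deposited tables of their own comparison gave the same direction for the genes they called. In the authors' deposited table for 5 days 12 of 34 genes with a value were higher and 0 lower at an adjusted p under 0.05, against 4.81% and 5.51% of all genes. In the authors' deposited table for 12 days 19 of 35 were higher and 0 lower, against 1.17% and 1.48%. Which test the authors ran was not given in the sources used here.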

How the data were processed

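Polyadenylated RNA from whole seedlings was sequenced in pairs of 150-base reads, per the labels. The deposited tables of the authors give total, unique, exon, intron and exon-exon read counts per gene, and TPM values of the authors, which equalled exon reads per exon length scaled to sum to 1000000. The genome build was TAIR10, per the submitters' processing notes, and the aligner, the strand setting and whether reads or pairs were counted were not given in the sources used here. The authors' tables of log2 fold changes and p-values are deposited per age.

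Total gene reads were fitted with edgeR 4.0.16 (TMM, filterByExpr, quasi-likelihood test, 8 residual degrees of freedom), with limma 3.58.1 and DESeq2 1.42.0 as alternatives, in R 4.3.3, and Benjamini-Hochberg adjustment ran over 21122 genes. On simulated data with 200 changed genes of mean level over 2 CPM the fit called 77% of 4-fold and 8% of 2-fold changes at 5 days (20906 genes). It called 80% and 13% at 12 days (20894 genes), with 2 and 7 unchanged genes called. The changed genes were drawn from all genes of that level and each varied independently. These rates were therefore not measured for the plastid genes. The labels call the libraries biological replicates, 3 per group, and their numbers are not shared between groups. Exon-exon reads over intron reads took a pseudocount of 0.5. Intervals and standard errors cover the spread between libraries, and total reads of 41.6 to 115.03 M limit the precision of low genes. Genes and lists were chosen with earlier results of these data known. Values per library are given for the polymerase subunits, clpP1, accD, each reported gene that passed, and the 2 single-copy genes of highest mean TPM in each ribosomal group. Some genes are in the counts and medians but are not reported singly here. Other genes named in passing were chosen after their values were seen. Nuclear lists are given by counts, with their called members named.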

Additional observations from a re-analysis of the deposited data

How the results depend on the processing

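Members called higher at 5 days (0) became 3 with DESeq2, 1 with only the 6 libraries of that age and 28 with plastid reads as library size, where the median was 2.18. Without libraries 4, 12 and 5 together, chosen after seeing the data, 6 were higher and 1 lower. At 12 days (8) the count was 20 with DESeq2, 0 with only the 6 libraries of that age, 28 with plastid reads and 22 with limma on log2(TPM + 0.5). It was 5 of 24 tested genes with unique reads, which almost leave out the inverted repeat. With exon reads, an alternative also added after seeing the data, it was 3 of 33. Over both ages (16) it was 28 with plastid reads, at a median of 2.42, and without libraries 4, 12 and 5 together 1 gene, rps14, was lower. With plastid reads the median age change in geralt was -0.37 and the median difference between ages 0.20. accD at 5 days turned to 1.49 with plastid reads (adjusted p = 0.00534) and to 0.0594 with limma. The share of plastid reads at 5 days in geralt was 34.3% in exon reads. The limma fit on TPM moved the median of all genes by 0.20 at 5 days, 0.43 at 12 days and 0.31 over both ages. The cause of these shifts was not tested.

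Leaving out 1 library gave 0 to 1 genes higher at 5 days, 0 to 11 at 12 days and 7 to 16 over both ages, with 0 lower in each. The median at 5 days ran from 0.41 to 0.87, the median age change from -1.22 to -0.47 in wild type and 0.07 to 0.89 in geralt, and the difference between ages from 0.81 to 1.54. accD at 5 days ran from -0.38 to 0.30. Log2 spliced ratios ran from 0.31 to 0.46 for rpoC1, from 0.13 to 0.64 for clpP1, from 0.01 to 1.39 for rpl16, from -0.34 to 0.39 and from -0.39 to 0.38 for the copies of rps12, and from -0.32 to 0.00321 for the second copy of rpl2. No paired analysis was run, since the groups share no replicate numbers. With 3 libraries per group, transcripts under about 1 CPM have wide standard errors, such as 1.46 for ccsA at 5 days.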
